A study of Arabidopsis thaliana with 10 samples.

Results

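Vegetative shoot apices of Arabidopsis thaliana overexpressing microRNA 319b (the miR319b group) were compared with apices overexpressing an artificial microRNA called miR-3TCP. Each group had 2 arrays, chosen by their titles, which makes 4 of the 10 arrays in the study. By the labels, miR-3TCP is directed at TCP5, TCP13 and TCP17, and microRNA 319b at TCP2, TCP3, TCP4, TCP10 and TCP24. Both microRNAs were driven by the 35S promoter, which is active in most cells of the plant and is not restricted to leaf primordia. Both groups were of the Col accession and grew on soil in short days. The miR-3TCP apices were taken at 14 DAS and the miR319b apices at 17 DAS, DAS being the age code of the labels, so microRNA and age cannot be told apart in this comparison. The other 6 arrays were used as reference points. They hold 2 arrays of Col at 14 DAS, 2 of a group called octa at 18 DAS in Col, and 2 of BLS>>TCP4 at 14 DAS in the Ler accession. Octa is taken here to be the combination of both microRNAs described in the design, and BLS>>TCP4 plants express TCP4 from the leaf-specific BLS promoter. No label says whether the 2 arrays of a group came from separate plantings or lines, so each p-value reflects how far these arrays lie apart, which may be technical.

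The CIN-TCP family consists of transcription factors. They restrain cell proliferation at the margins of young leaves and promote the switch to differentiation. Plants in which they are reduced make leaves with excess marginal growth and a crinkled surface. One clade of the family carries a target site for microRNA 319 and the other does not, which is why an artificial microRNA is needed to reach TCP5, TCP13 and TCP17. The comparison therefore sets the reduction of one clade against the reduction of the other.

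None of the 8 targeted TCP genes had a probe set that the array annotation lists under that gene alone, so the levels of the targets, and with them a check of the labels, were not analysed here. The values are MAS5 signals, the output of Affymetrix's algorithm that summarises the probes of a gene into 1 number per probe set, and every array had a median signal of 50. The mean signal was 151 and 153 on the miR-3TCP arrays and 152 and 156 on the miR319b arrays. Over the 13648 probe sets tested, log2 signals of the miR-3TCP replicates correlated at r = 0.9825 and those of the miR319b replicates at r = 0.9745, while arrays of different groups correlated at r = 0.9349 to 0.9691. These correlations run across probe sets and describe the arrays only. Of the probe sets other than controls, 13513 are listed with 1 gene, 503 with several and 8730 with none. Most genes with a listed probe set carry a locus code rather than a symbol, and no function is stated for those below.

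Many probe sets were called between the 2 groups, and most of these calls were lower in miR319b. With limma and a Benjamini-Hochberg adjusted p under 0.05, 508 of 13648 probe sets (3.72%) were called, 364 lower in miR319b (2.67%) and 144 higher (1.06%). The calls were thus 71.7% in the lower direction, although the median difference over all probe sets tested was -0.0058 on the log2 scale. At an unadjusted p under 0.05, 2723 probe sets passed. The called falls had a median of -0.83 log2 and the called rises a median of 0.79, and 79 falls and 28 rises exceeded 1 log2 unit. In all 508 the 2 arrays of one group lay entirely to one side of the 2 arrays of the other, which without any test was true of 29.4% of all probe sets in the lower direction and 27.4% in the higher. With an exact annotation to 1 gene, 161 probe sets were lower and 59 higher. Of those genes 32 carry a symbol, 24 lower and 8 higher, of 1035 such probe sets tested, and 0 of the called probe sets with 1 gene carry the array's suffix for probes shared between genes. In whole apices, fewer cells of a type and less RNA per cell cannot be told apart.

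The size of the list depended on single arrays. Leaving out miR-3TCP replicate 2 or miR319b replicate 2 left 10 called probe sets, leaving out miR319b replicate 1 left 49, and leaving out miR-3TCP replicate 1 left 86, whereas leaving out the noisier BLS>>TCP4 arrays from the shared estimate of spread raised the count to 1096. The sign of the difference was the same for all 508 in each of these fits. Of 53 called genes named by rule, 3 (AT2G29290, AT3G05730 and AT1G76110) stayed called with any 1 array left out, and 35 were called in none of the 4 such fits.

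**Figure D1:**
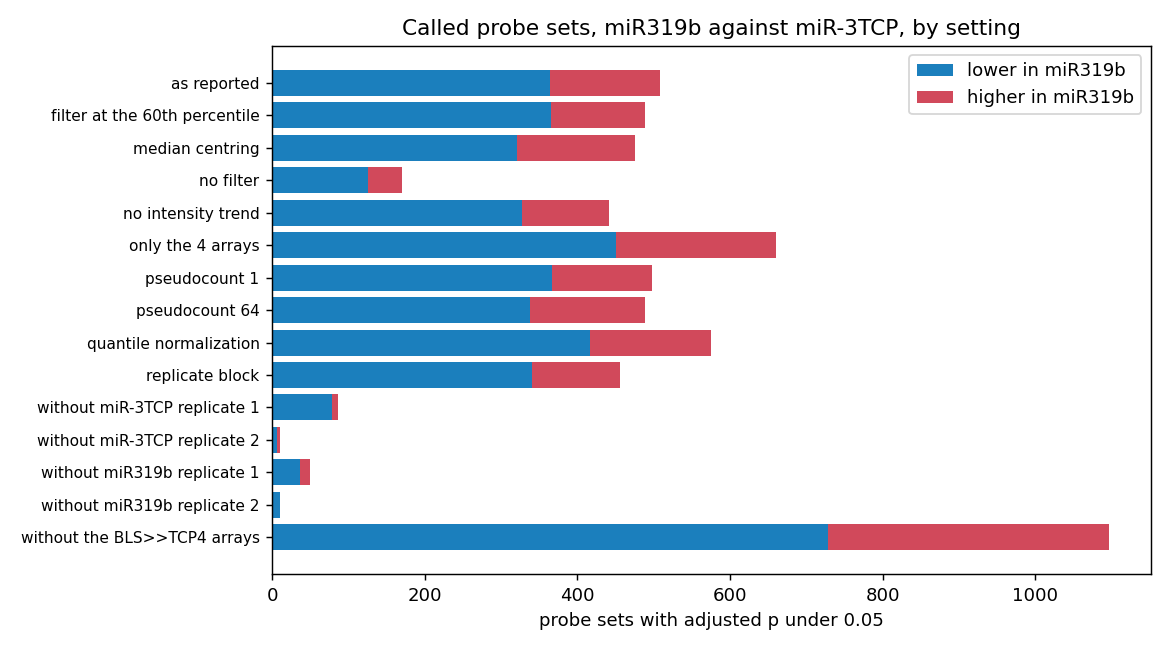
Number of probe sets with adjusted p under 0.05 (horizontal axis) in miR319b against miR-3TCP under each processing setting, split into probe sets lower (blue) and higher (red) in miR319b. The count of 508 drops to between 10 and 86 when 1 of the 4 arrays is left out and is 1096 without the BLS>>TCP4 arrays.

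Both microRNA groups were also set against Col, with the same 2 Col arrays in each comparison. miR319b minus Col gave 518 called probe sets (3.8%), 360 lower (2.64%) and 158 higher (1.16%). miR-3TCP minus Col gave 1 (0.00733%), which was QQS, and 397 at an unadjusted p under 0.05. The Col and miR-3TCP apices were both taken at 14 DAS and the miR319b apices at 17 DAS. Age is thus matched in miR-3TCP minus Col only, and in miR319b minus Col it cannot be told apart from the microRNA. The probe sets called between the microRNA groups were chosen on these same miR319b and miR-3TCP arrays, so the sides on which they lie of Col are partly fixed by that choice and are given as a description only. The 364 probe sets lower in miR319b than in miR-3TCP had a median difference from Col of -0.76 log2 in miR319b and 0.06 in miR-3TCP, and 256 of them were called lower than Col in miR319b against 0 in miR-3TCP, where 3 were lower and 10 higher at an unadjusted p under 0.05. For the 144 higher probe sets the medians were 0.68 in miR319b and -0.07 in miR-3TCP, with 80 called higher than Col in miR319b and 0 in miR-3TCP, where at an unadjusted p under 0.05 0 were higher and 17 lower.

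The falls described here are the 12 largest among called probe sets listed with exactly 1 gene. Probe sets without a single listed gene fell further, down to -3.14 log2. Of the 12, 11 are known here by locus code only. AT2G29290 had signals of 124 and 137 in miR-3TCP (mean 131 ± 9.73, SD, n = 2) and 8.31 and 8.42 in miR319b (8.36 ± 0.075, n = 2). Both miR319b arrays were far below both miR-3TCP arrays, which themselves overlapped the Col arrays at 81.3 and 133. The limma difference was -2.59 ± 0.22 (SE) on the scale of log2(signal + 16), which understates the change of a gene this low, with an adjusted p of 0.00104. AT3G05730 read 305 and 221 in miR-3TCP, 47.1 and 34.3 in miR319b, and 682 and 608 in Col. Its arrays stood in steps, with Col highest, miR-3TCP between and miR319b low, and neighbouring groups did not overlap. Its difference between the microRNA groups was -2.29 ± 0.19 (adjusted p = 0.00104), while miR-3TCP minus Col was -1.26 and did not pass (adjusted p = 0.296). AT1G76110 read 132 and 159 in miR-3TCP and 39.7 and 30.2 in miR319b, against 109 and 108 in Col. The groups did not overlap and the difference was -1.67 ± 0.16 (adjusted p = 0.00204).

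The other falls among these 12 were AT3G28220 (-1.89), AT1G11850 (-1.72), AT4G38950 (-1.61), AT3G57160 (-1.53), AT1G13650 (-1.50), AT1G14580 (-1.45), AT1G54820 (-1.40), HEME1 (-1.38) and AT1G70820 (-1.29), all as log2 differences. AT1G11850 went from 128 and 192 in miR-3TCP to 32.2 and 41.2 in miR319b (adjusted p = 0.00752). AT3G57160 went from 99.1 and 106 to 21.5 and 28.6 (adjusted p = 0.00388). In both genes the miR-3TCP arrays were above every miR319b array, and the miR-3TCP replicates of AT1G11850 differed more from each other than those of AT3G57160. AT3G28220 rested on uneven replicates, with 270 and 688 in miR-3TCP against 113 and 97.2 in miR319b. Its adjusted p of 0.0303 became 0.218 without miR-3TCP replicate 2, the highest of a range of 0.016 to 0.218 over the alternatives, and the difference there was -1.25. AT1G13650 was likewise uneven, at 29.4 and 67.5 against 5.74 and 5.77, and without that array the difference was -1.06 (adjusted p = 0.19, in a range of 0.0113 to 0.19). All 12 genes were also below Col in octa, 6 of them called, where 59% of all probe sets were below Col and 1.52% were called lower. In BLS>>TCP4 10 of the 12 were above Col, as were 59.6% of all.

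**Figure D2:**
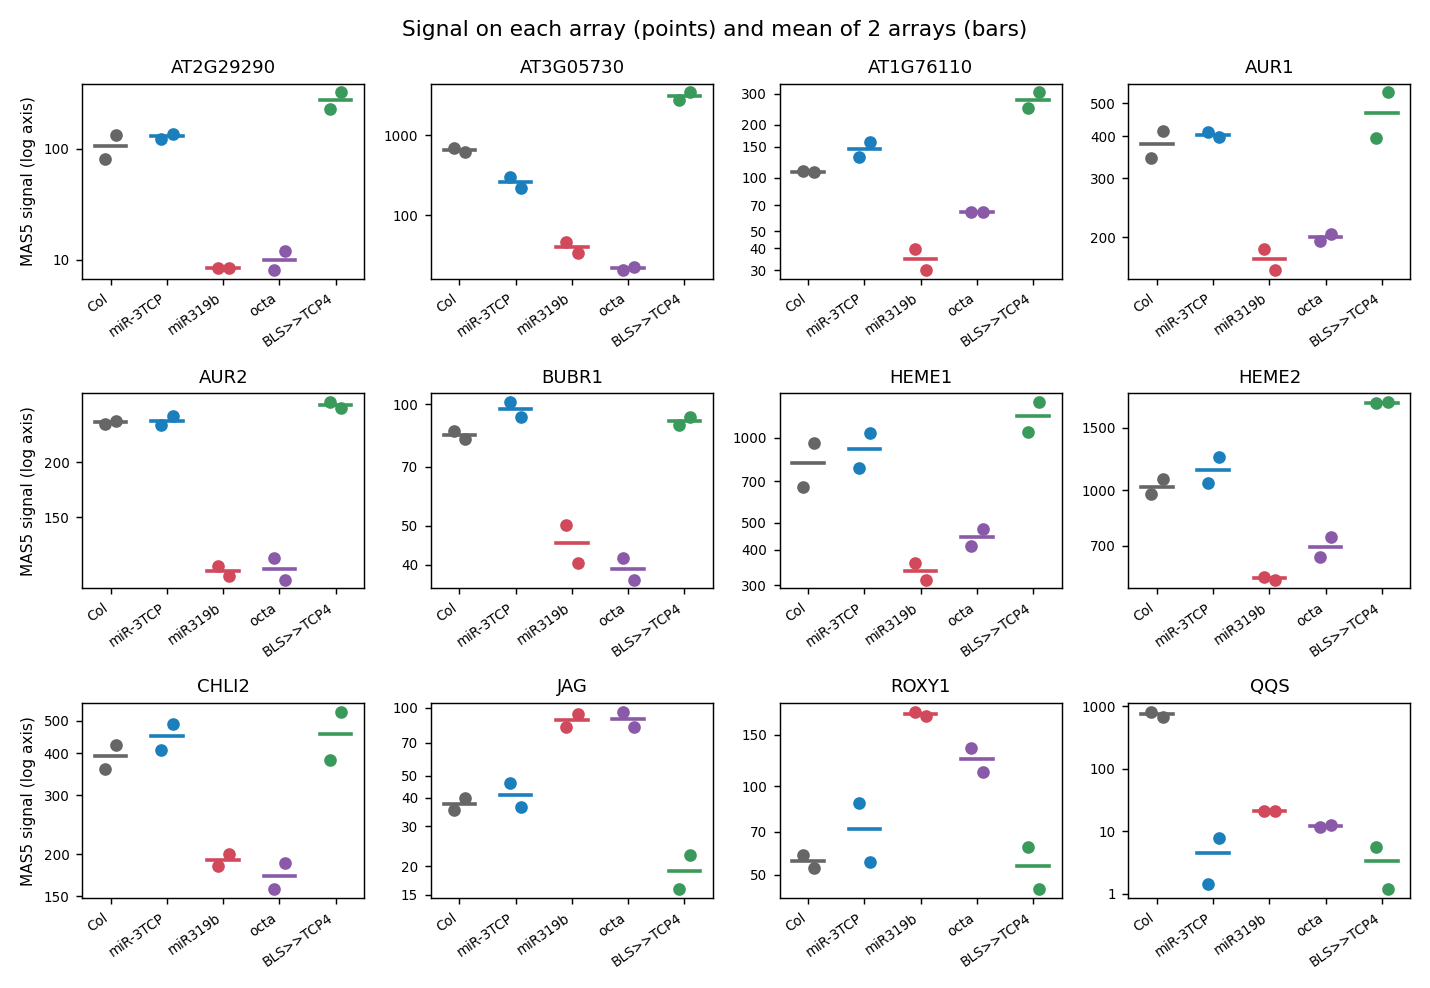
MAS5 signal (log axis, own scale in each panel) of 12 genes in the 5 groups, with a point for each array and a bar for the mean of 2 arrays. The miR319b arrays of AT2G29290 (8.31 and 8.42) and AUR2 (116 and 110) lie below both miR-3TCP arrays (124 and 137; 243 and 255), those of JAG and ROXY1 above, and QQS is high in Col only (805 and 677).

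Among the 32 called genes with a symbol, of which 24 were lower, 6 act in mitosis and cytokinesis, and all 6 were lower in miR319b. They were gathered after the calls were seen, so their number says nothing of mitotic genes in general. They included AUR1 and AUR2, Aurora kinases of the spindle and the forming cell plate, and BUBR1, a protein of the spindle checkpoint. The others were KINESIN-12B, a motor of the phragmoplast, WYR, the plant counterpart of the Aurora partner INCENP, and UBC20, a ubiquitin-conjugating enzyme tied to cell division. AUR1 read 410 and 398 in miR-3TCP (404 ± 8.5, SD, n = 2) and 185 and 160 in miR319b (172 ± 17.9, n = 2), with 345 and 415 in Col. AUR2 read 243 and 255 in miR-3TCP (249 ± 8.76, n = 2) and 116 and 110 in miR319b (113 ± 4.47, n = 2), with 245 and 249 in Col. In both kinases the miR-3TCP arrays were around the Col level and the miR319b arrays far below it. The differences were -1.16 ± 0.17 log2 for AUR1 (adjusted p = 0.0134) and -1.04 ± 0.13 for AUR2 (adjusted p = 0.00752).

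BUBR1 had signals of 101 and 93.1 in miR-3TCP and 50.3 and 40.4 in miR319b, a difference of -0.88 ± 0.14 (adjusted p = 0.0151). KINESIN-12B had 84.9 and 71.4 against 36.0 and 36.2, a difference of -0.85 ± 0.15 (adjusted p = 0.0232). Neither gene's groups overlapped, and Col, at 85.9 and 82.1 for BUBR1 and 78.7 and 87.0 for KINESIN-12B, lay on the miR-3TCP side. WYR had 84.9 and 82.9 in miR-3TCP and 46.7 and 37.1 in miR319b (-0.79 ± 0.18, adjusted p = 0.0421). UBC20 had 362 and 347 against 228 and 208 (-0.67 ± 0.14, adjusted p = 0.0388). For WYR the Col arrays were wide apart, at 79.6 and 52.9, while for UBC20 they were at 364 and 407. Across the alternatives that were run, AUR2 had an adjusted p of 0.00593 to 0.112 and AUR1 of 0.00603 to 0.139, the high ends coming from fits with 1 array left out.

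All 6 genes were below Col in octa, where 59% of all probe sets tested were below Col, and 5 of the 6 were called there, against 1.52% of all called lower. The octa and Col arrays have no part in the difference between the microRNA groups, but they share its estimate of the spread. The AUR2 signals in octa were 121 and 108 (octa minus Col -1.01, adjusted p = 0.0132) and those of AUR1 were 195 and 205 (-0.87, adjusted p = 0.0423). The octa arrays of AUR2 overlapped the miR319b arrays. In BLS>>TCP4 none of the 6 was called by limma against Col, 1 was lower at an unadjusted p under 0.05, and their differences ran from -0.46 to 0.28 log2. A list of mitotic cell cycle genes, chosen with earlier results of these data known, had 4 of its 26 members tested. Of these 3 were called lower, against 2.67% of all probe sets, and the median was -0.96 against -0.0058 over all. The remaining member, AUR3, a further Aurora kinase, had 97.8 and 97.2 in miR-3TCP and 69.5 and 79.3 in miR319b (-0.33, adjusted p = 0.244). A wider list of spindle, phragmoplast and checkpoint genes, put together after the calls were seen, had 13 of 80 members tested, with 6 called lower (2.67% of all probe sets) and none higher (1.06%) and a median of -0.47. Its members without a call included KINESIN-13A (-0.05, 95% interval -0.43 to 0.33), ATMAP65-6 (0.09, -0.45 to 0.64) and HTR12, the centromeric histone (0.01, -0.40 to 0.43). No cyclin gene of 62 had a probe set listed under it alone. Of the DNA replication list 2 genes were tested and neither passed, ICU2, a DNA polymerase subunit, at -0.23 (-0.77 to 0.31) and PRL at 0.20 (-0.41 to 0.82).

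Another 15 of the 24 lower genes with a symbol are nuclear genes for proteins that work in plastids or other organelles, with a median of -0.73 log2. They too were gathered from the called genes, with no count of such genes tested, and the lists below give the counts over tested members beside 2.67% of all probe sets called lower. Tetrapyrrole synthesis, the pathway to haem and chlorophyll, supplied 4 of them. HEMB1 encodes aminolevulinate dehydratase, an early step, HEME1 and HEME2 encode uroporphyrinogen decarboxylases in the middle of the pathway, and CHLI2 encodes a subunit of the magnesium chelatase that commits the pathway to chlorophyll. HEME1 read 782 and 1044 in miR-3TCP (913 ± 185, SD, n = 2) and 361 and 314 in miR319b (337 ± 33.3, n = 2). HEME2 read 1051 and 1238 in miR-3TCP and 572 and 562 in miR319b. The miR-3TCP replicates of HEME1 were spread, those of HEME2 less so, and no miR319b array reached the miR-3TCP range in either gene. The differences were -1.38 ± 0.21 for HEME1 (adjusted p = 0.0134) and -0.99 ± 0.13 for HEME2 (adjusted p = 0.00872).

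CHLI2 had signals of 410 and 491 in miR-3TCP and 184 and 201 in miR319b (-1.16 ± 0.18, adjusted p = 0.0166). HEMB1 had 1187 and 1157 against 724 and 726 (-0.68 ± 0.13, adjusted p = 0.0302). The replicates of both groups were close together for HEMB1, and Col, at 1064 and 1316, enclosed the miR-3TCP arrays. A list of 14 tetrapyrrole and chlorophyll genes, also chosen with earlier results known, had 3 members tested, with CHLI2 called lower and a median of -0.51. CHLM, the magnesium protoporphyrin methyltransferase, was at -0.51 (adjusted p = 0.0998), and PORB, a light-dependent protochlorophyllide reductase, at -0.49 (adjusted p = 0.418). In a longer list by enzyme symbol, put together after the calls were seen, 9 of 31 genes were tested, 4 were called lower and all 9 differences were negative, with a median of -0.68. The 5 without a call were hemf2 (-0.80), HEMA2 (-0.58), GSA1 (-0.52), CHLM and PORB.

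**Figure D3:**
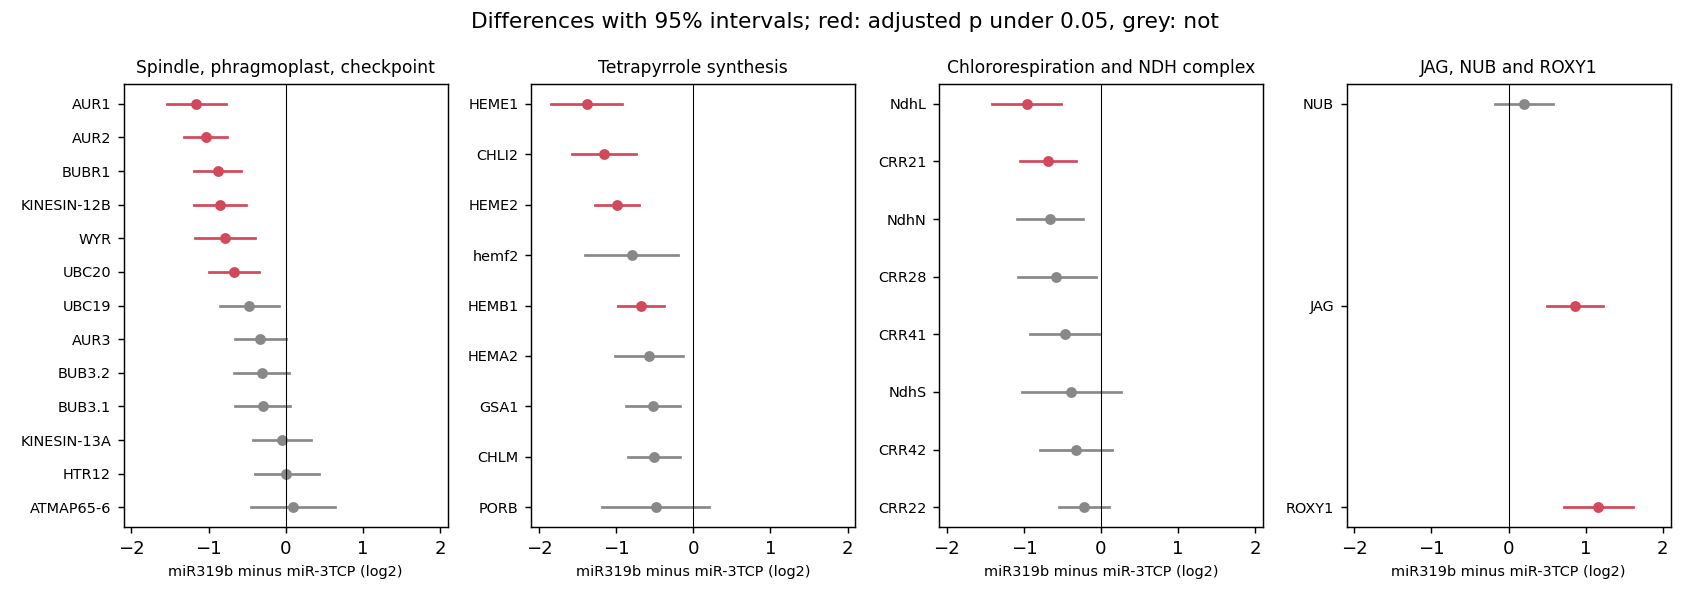
Log2 difference, miR319b minus miR-3TCP, with its 95% interval from limma for each tested gene of 4 lists; red genes had an adjusted p under 0.05. The 9 tetrapyrrole genes and the 8 chlororespiratory genes all lie below 0, 11 of 13 spindle genes do, and JAG and ROXY1 lie above 0.

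Other plastid functions were each represented by 1 or 2 called genes. LrgB, a transporter of photorespiratory glycolate and glycerate in the chloroplast envelope, had signals of 544 and 767 in miR-3TCP and 336 and 296 in miR319b, a difference of -1.0 ± 0.17 (adjusted p = 0.0209). NdhL, a subunit of the chloroplast NADH dehydrogenase-like complex, had 197 and 247 against 127 and 86.6, a difference of -0.96 ± 0.20 (adjusted p = 0.0351). The replicates of both genes were uneven and yet did not overlap between groups. CRR21, an RNA editing factor for the same complex, was at -0.69 (adjusted p = 0.0487). Of 8 tested chlororespiratory and NDH genes, in a list made after the calls were seen, these 2 were called and all 8 differences were negative, with a median of -0.52.

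CFM3A, which acts in splicing of plastid introns, went from 181 and 199 in miR-3TCP to 99.3 and 98.3 in miR319b (-0.84, adjusted p = 0.0142). NTRC, a plastid thioredoxin reductase, went from 666 and 737 to 424 and 411 (-0.72, adjusted p = 0.0243). FTSZ2-2, a protein of the plastid division ring, went from 164 and 186 to 112 and 105 (-0.61, adjusted p = 0.0435). In each of the 3 genes the miR319b replicates lay close together and below every miR-3TCP and Col array. The others were LSMT-L, a methyltransferase that acts on plastid proteins (-0.76), SPP, the stromal processing peptidase (-0.73), UPP, a uracil phosphoribosyltransferase (-0.65), CLPP4, a subunit of the plastid Clp protease (-0.65), and MAP1D, an organellar methionine aminopeptidase (-0.54), with adjusted p of 0.0368 to 0.0493. Lists holding CFM3A, NTRC, FTSZ2-2, SPP, CLPP4 or MAP1D were made after the calls were seen, and each had 1 member called lower. Plastid import and processing had 3 genes tested, 2 of them positive (median 0.16). The thioredoxin system and the organellar methionine aminopeptidases had 4 each, 1 positive (-0.42 and -0.32). Differences were all negative for plastid division (2 tested, -0.33), CRM splicing (3, -0.59) and Clp subunits (2, -0.47). Outside the plastid group, iqd21, an IQ-domain protein, fell by 0.84 (257 and 269 against 142 and 137, adjusted p = 0.0134). SOL1 (-0.66) and TRM25, of the TON1 recruiting motif family (-0.63), completed the 24 genes with a symbol that were lower. In lists of these families made after the calls were seen, 10 IQ-domain genes and 10 TON1 recruiting motif genes were tested. Each list had 1 call, against 2.67% of all probe sets called lower. The medians were -0.08 and -0.04, with 4 and 5 differences positive.

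The 15 plastid genes were all below Col in octa (59% of all probe sets), 4 of them called (1.52% of all). In BLS>>TCP4 14 were above Col (59.6% of all), 9 of them called (17.3% of all), with a median of 0.60. The BLS>>TCP4 arrays had higher mean signals than the other arrays, and the shares among probe sets of like signal were not counted. LrgB ran from 329 and 343 in octa and 336 and 296 in miR319b to 1726 and 1912 in BLS>>TCP4. HEME2 ran from 572 and 562 in miR319b to 1760 and 1768 in BLS>>TCP4. The tetrapyrrole genes HEME1, CHLI2 and HEMB1 were not called in BLS>>TCP4 against Col (0.55, 0.20 and 0.15 log2). Of the tetrapyrrole genes not called between the microRNA groups, CHLM (0.82) and GSA1 (0.64) were called higher than Col there. HEMA2 (-1.39) and hemf2 (-1.08) were called lower than Col, and PORB (0.23) was not called. Genes of the photosystems, antennae and Calvin cycle were described as a separate list. Of its 8 tested members limma called none, and none had an unadjusted p under 0.05, with 4 differences positive, 4 negative and a median of -0.02. RCA, Rubisco activase, had 2787 and 2863 in miR-3TCP and 2927 and 2996 in miR319b (0.07, 95% interval -0.11 to 0.24). LHCB4.1, an antenna protein, was at 0.02 (-0.24 to 0.28), and PRK, phosphoribulokinase, at -0.33 (-0.67 to 0.01). A list of genes that the plastid genome itself encodes, made after the calls were seen, had 16 members tested. Of these 1 was called higher, where 1.06% of all probe sets were, while 10 differences were negative, with a median of -0.12. The called gene was psbA, for the D1 protein of photosystem II, with 73.5 and 106 in miR319b against 39.8 and 44.9 in miR-3TCP (0.84, adjusted p = 0.0388).

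Among the rises with exactly 1 listed gene, AT1G20070 was the largest, at 44.3 and 104 in miR-3TCP and 296 and 386 in miR319b. The miR-3TCP replicates were far apart and the miR319b arrays well above both, and the difference was 2.06 ± 0.30 (adjusted p = 0.0134). AT1G47400 read 21.8 and 26.7 against 76.0 and 97.1, a difference of 1.34 ± 0.23 (adjusted p = 0.022). It was the called member of the 2 tested in the iron deficiency list, which was chosen with earlier results known. Of all probe sets 1.06% were called higher. AT1G44835 read 128 and 149 against 329 and 392 (1.29 ± 0.20, adjusted p = 0.0142). In both genes the groups were well separated. Col, at 18 and 15.5 for AT1G47400 and 131 and 115 for AT1G44835, lay on the miR-3TCP side. AT1G29270 read 119 and 135 in miR-3TCP, 325 and 327 in miR319b, 126 and 137 in Col, 288 and 318 in octa and 18.8 and 22.1 in BLS>>TCP4. Its levels thus stood at Col in miR-3TCP, above Col in miR319b and octa, and below Col in BLS>>TCP4. These 3 levels did not overlap. The miR319b and octa groups also differ from Col in age, and BLS>>TCP4 in accession. Neither can be told apart from the transgenes. The difference between the microRNA groups was 1.27 ± 0.13 (adjusted p = 0.00447), octa minus Col was 1.11 (adjusted p = 0.0113) and BLS>>TCP4 minus Col was -2.02 (adjusted p = 1.97e-05).

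The other rises among the 12 largest with exactly 1 listed gene were AT1G65490 (1.17), ROXY1 (1.16), AT1G65500 (1.14), UBC16 (1.13), AT4G19200 (1.13), AT5G61660 (1.11), AT2G38640 (1.11) and AT5G02550 (1.08), as log2 differences. AT4G19200 had 120 and 146 in miR-3TCP and 301 and 318 in miR319b (adjusted p = 0.00872). The groups were apart, and Col, at 192 and 164, lay between them. All 12 were above Col in octa (41% of all probe sets), 3 of them called (0.271% of all), while in BLS>>TCP4 6 were above Col and 6 below.

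Of the 8 higher genes with a symbol, ROXY1 and JAG are known regulators of lateral organs. ROXY1, a glutaredoxin needed for petal and anther development, had 87.8 and 55.2 in miR-3TCP (71.5 ± 23, SD, n = 2) and 179 and 174 in miR319b (177 ± 3.7, n = 2). JAG, a zinc finger protein that promotes growth of leaf and petal blades, had 46.4 and 36.3 in miR-3TCP (41.4 ± 7.12, n = 2) and 82.3 and 93.6 in miR319b (87.9 ± 7.96, n = 2). Neither gene's groups overlapped, and the miR-3TCP arrays were the more spread for ROXY1. The differences were 1.16 ± 0.20 for ROXY1 (adjusted p = 0.0209) and 0.86 ± 0.16 for JAG (adjusted p = 0.0269), with ranges over the alternatives of 0.0129 to 0.215 and 0.0158 to 0.277. JAG was at 35.5 and 40 in Col, at 95.5 and 81.8 in octa and at 15.8 and 22.4 in BLS>>TCP4, which put octa with miR319b and BLS>>TCP4 below Col (-0.62, adjusted p = 0.0195). ROXY1 was at 135 and 112 in octa and at 62.1 and 44.5 in BLS>>TCP4, which puts octa between miR319b and Col and leaves BLS>>TCP4 around Col. NUB, a close relative of JAG, was at 49.5 and 39.6 in miR-3TCP and 51.3 and 55.3 in miR319b and was not called (0.20, 95% interval -0.18 to 0.57).

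The remaining rises with a symbol were UBC16, a ubiquitin-conjugating enzyme (56.0 and 38.1 against 140 and 104, 1.13 ± 0.20, adjusted p = 0.0243), RALFL33, a small secreted peptide (0.86), ATG8B of the autophagy machinery (0.77), psbA, RRP41L, related to a subunit of the RNA exosome (0.73) and QQS. RALFL33 had 135 and 103 in miR-3TCP and 220 and 235 in miR319b (adjusted p = 0.0368). In octa it had 155 and 140, within the range of the Col arrays at 163 and 124. Octa minus miR319b was -0.58 and did not pass (adjusted p = 0.378). ATG8B had 40.7 and 30.4 against 65.9 and 77.2 (adjusted p = 0.0331), with octa at 66.0 and 64.3. Of the lists these genes belong to, all made after the calls were seen, the ubiquitin-conjugating enzymes had 12 members tested with 1 lower and 1 higher, the ATG genes 11 with 1 higher and the RALF peptides 5 with 1 higher, where 2.67% of all probe sets were called lower and 1.06% higher.

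QQS, an orphan gene of Arabidopsis tied to starch content, separated Col from all other groups. It read 805 and 677 in Col, 1.42 and 7.77 in miR-3TCP, 20.9 and 21.1 in miR319b, 11.6 and 12.5 in octa and 5.66 and 1.18 in BLS>>TCP4. Col was high and all other groups were low, both microRNA groups included. Against Col it was lower in miR-3TCP by a log2 difference of -5.21 (adjusted p = 1.39e-06) and in miR319b by -4.35 (adjusted p = 8.11e-06). The call between the microRNA groups (0.86 ± 0.19, adjusted p = 0.0397) compares signals around or under the added constant of 16, and it held in 4 of 12 alternatives.

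The signs and sizes of octa minus Col and BLS>>TCP4 minus Col come from none of the 4 arrays contrasted here. Their calls are not independent of it, because all 10 arrays share 1 estimate of the spread for each probe set, and choosing called probe sets favours a small estimate in every comparison. Octa differs from Col in age (18 against 14 DAS) as miR319b does from miR-3TCP, and BLS>>TCP4 differs from Col in accession. Neither factor can be told apart from the transgenes. Of the 364 probe sets lower in miR319b, 356 (97.8%) were below Col in octa, where 59% of all probe sets tested were below Col. Their median in octa was -0.65 log2, 130 (35.7%) were called lower than Col, against 1.52% of all probe sets, and 0 were called higher, nor was any higher at an unadjusted p under 0.05. Of the 144 higher probe sets, 120 (83.3%) were above Col in octa, against 41% of all, with a median of 0.35. There 20 (13.9%, against 0.271%) were called higher and 1, QQS, was called lower. Over all probe sets octa minus Col gave 245 calls (1.8%). Between octa and miR319b themselves limma called 0 probe sets, at most 2 under the other settings tried, and 1342 had an unadjusted p under 0.05.

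In BLS>>TCP4, 282 of the 364 lower probe sets (77.5%) were above Col, against 59.6% of all tested, with a median of 0.41. Of them 165 (45.3%) were called higher than Col, against 17.3% of all, and 19 (5.22%) were called lower, against 8.61%. The 144 higher probe sets stood on both sides of Col. There 61 (42.4%) were below Col in BLS>>TCP4, against 40.4% of all, 27 (18.8%) were called lower, against 8.61%, and 36 (25%) were called higher, against 17.3%. Of all probe sets, 3530 (25.9%) were called there. A position below Col in octa together with one above Col in BLS>>TCP4 was held by 279 (76.6%) of the lower probe sets and by 35% of all, and the converse by 55 (38.2%) of the higher probe sets and by 16.3% of all. Both positions are read from the same Col arrays. In the higher probe sets the joint share mostly reflects octa, because their share below Col in BLS>>TCP4 alone was near that of all (42.4% against 40.4%). Over the 13648 probe sets the difference between the microRNA groups correlated with octa minus Col at r = 0.543 and with BLS>>TCP4 minus Col at r = -0.0243. Over the 508 called these were 0.789 and -0.183. Probe sets are not independent replicates, and these coefficients describe the arrays only.

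**Figure D4:**
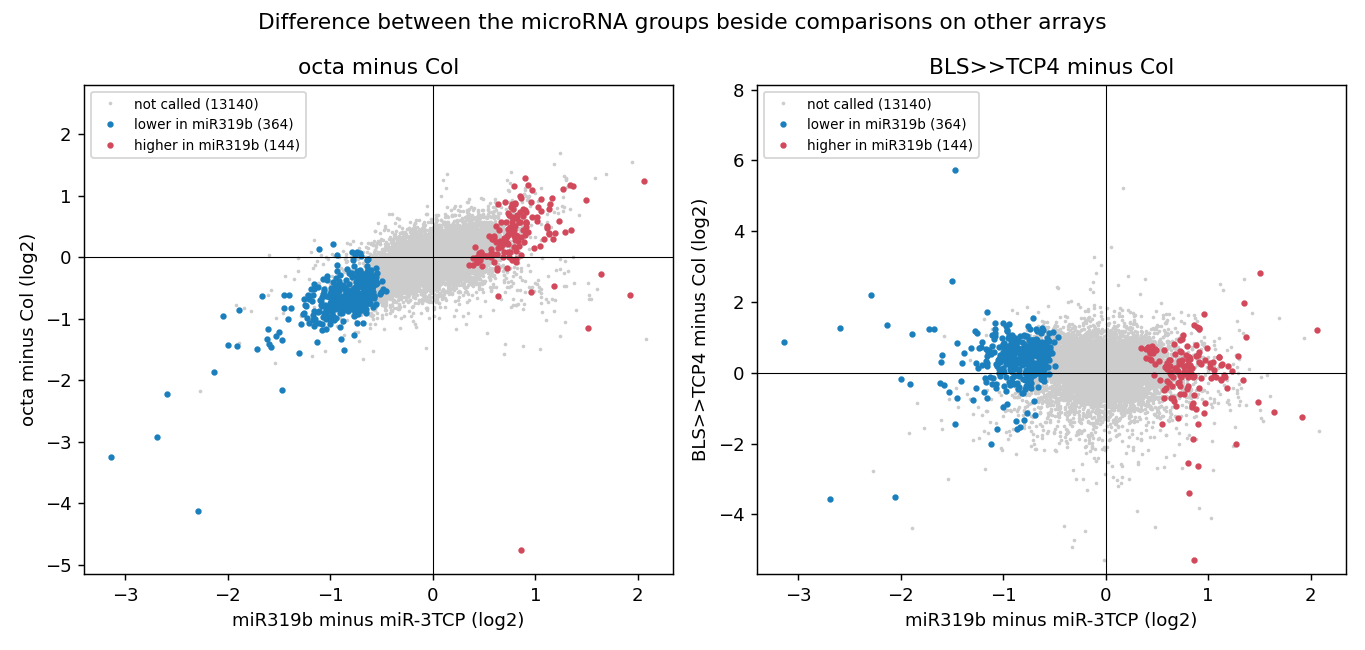
Log2 difference between miR319b and miR-3TCP (horizontal axes) against octa minus Col (left) and BLS>>TCP4 minus Col (right) for the 13648 probe sets tested; blue points were called lower and red points higher in miR319b. On the left 356 of 364 blue points lie below 0, and on the right 282 of 364 lie above 0, while QQS is the red point far below the rest in both panels.

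Several genes tied to CIN-TCP function or leaf development had no call, and their intervals bound the size of a difference. RR16, a cytokinin response regulator known as a target of TCP4, had 37.4 and 78.6 in miR-3TCP and 15.3 and 15.0 in miR319b. The groups did not overlap, but the miR-3TCP replicates were far apart, and the difference of -1.19 (95% interval -1.86 to -0.51) had an adjusted p of 0.0621. STOMAGEN, a peptide that promotes stomata, had 192 and 199 against 127 and 118 (-0.61, -1.10 to -0.12, adjusted p = 0.158). YAB3, a gene of leaf polarity, was at 0.13 (-0.19 to 0.45) and YAB5, of the same family, at 0.38 (0.08 to 0.69). TCP15, a TCP gene outside the CIN clade, had 171 and 177 against 225 and 228 (0.35, 0.07 to 0.63, adjusted p = 0.16). AGL24, a floral promoter, was at -0.14 (-0.48 to 0.20).

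In the expansin family, whose proteins loosen cell walls, 9 of 38 genes were tested and limma called none. The median was 0.55, against -0.0058 over all probe sets tested, and 7 differences were positive. Of these 4 had an unadjusted p under 0.05, as did 1181 of all 13648 probe sets in the higher direction. EXPA15 had 404 and 359 in miR-3TCP and 634 and 951 in miR319b (1.0, 0.30 to 1.70, adjusted p = 0.113). OPCL1, of jasmonate synthesis, was the only tested gene of the jasmonate list, at 0.74 (0.19 to 1.3, adjusted p = 0.135), and SLY1, an F-box protein of gibberellin signalling, was at 0.50 (0.20 to 0.79, adjusted p = 0.0698). Of 40 gene lists drawn up before these calls, but with earlier results of these data known, 31 had a tested gene. A called gene stood in 5 of them. This count of lists cannot be set against the 3.72% of all probe sets called, because the lists differ in their number of tested genes. These 5 were the mitotic, kinesin, tetrapyrrole and iron deficiency lists and the list of genes tied to CIN-TCP in the literature, where JAG was the called member of 5 tested.

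Among markers of other tissues that a dissected apex could hold, those that passed the filter on low signals showed no called difference. For roots, 3 of 7 markers are listed, and their summed signal was 1859 to 2052 in miR-3TCP and 2088 to 2127 in miR319b, nearly all of it from PYK10, a beta-glucosidase, at 2032 and 1828 against 2113 and 2067 (0.12, 95% interval -0.25 to 0.48). EXPA7, an expansin of root hairs, read 6.55 and 10.9 in miR-3TCP and 2.24 and 2.88 in miR319b, close to 0. Both EXPA7 and EXPA18, another listed root marker, were below the filter and could not be called. For mesophyll, RCA was the 1 listed of 7, with the values above. The trichome markers SIM and GIS, 2 of 4, summed to 120 to 143 in miR-3TCP and 147 to 170 in miR319b. FMA, of the guard cell lineage and 1 of 4, read 39.7 and 44.5 against 43.6 and 39.0. CLV3, the 1 listed marker of the shoot meristem, read 7.26 and 5.42 in miR-3TCP and 0.654 and 1.84 in miR319b and was below the filter on low signals, so the label of a shoot apex could not be checked against its defining genes. None of 6 floral markers has a probe set listed under it alone.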

How the data were processed

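The deposited intensities are MAS5 signals, 1 per probe set and array, made by the authors per the submitters' processing notes, and every array's deposited values have a median of 50. Scanner files and detection calls were not used here. From 22810 probe sets, 64 controls were removed. Signals were taken as log2(signal + 16), and 13648 probe sets passed a filter at the 40th percentile of the mean log2 value over arrays. A linear model from limma 3.58.1 (R 4.3.3), with moderated variances and an intensity trend, was fitted on all 10 arrays with 1 term for each of 5 groups, which leaves 5 residual degrees of freedom, and p-values were adjusted by Benjamini-Hochberg over all probe sets tested. The median standard error of a difference was 0.17 log2, and 2 arrays a group limit the precision. An exact permutation test of 2 against 2 arrays cannot go below 0.333, so none was used. The fit was tested on simulated data.

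Probe sets were named only where the platform annotation gives exactly 1 gene, with symbols from RefSeq (TAIR10.1), where 13436 of 13513 matched. The genes named were the 12 largest rises and falls among called probe sets with exactly 1 gene, up to 3 called members of each list or, in lists with no call, the 2 members with the lowest p, and JAG, ROXY1, AUR1, AUR2, QQS and AT3G05730. The genes with a symbol that were called, and 16 further lists, were added after their values were seen. The comparison, its members and all lists were chosen with earlier results of these data known. Lists are described by counts and medians, with no test. Alternatives changed the pseudocount, filter, scaling, intensity trend, replicate block and the arrays used.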

Additional observations from a re-analysis of the deposited data

How the results depend on the processing

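Of 508 called probe sets (364 lower, 144 higher), 170 (126 and 44) were called with no filter, where 22746 probe sets share the adjustment, and 1096 (728 and 368) without the BLS>>TCP4 arrays, whose replicates differed most (SD of the log2 difference 0.444, against 0.242 to 0.296 in the other groups). With 1 of the 4 arrays left out there were 10 to 86 calls, 7 to 79 lower and 0 to 12 higher, in fits where the lone array is assumed to vary like the other groups. The other settings gave 441 to 660 calls, among them 575 with quantile normalization, 476 with median centring and 660 with only the 4 arrays. The share of calls that were lower was 66.4% to 74.8% with no array of the 4 left out. The sign held for all of the 508 that each alternative tested. The share of lower probe sets below Col in octa, 97.8%, was 99.2% with no filter, 96.2% without BLS>>TCP4 and 97.3% to 100% with an array left out. The share of higher probe sets above Col in octa, 83.3%, was 78.2% with the filter at the 60th percentile, 85.8% with median centring, 79.5% with no filter, 89.5% with no intensity trend, 84.7% with a pseudocount of 64, 91.1% with quantile normalization, 78.5% without BLS>>TCP4 and 91.7% to 100% with an array left out; the fit without miR319b replicate 2 called none higher. The cause of these shifts was not tested. The labels do not say that replicate numbers pair arrays, and the correlation of same-numbered deviations was -0.013 between the microRNA groups and -0.401 to 0.451 over all 10 pairs of groups; with the replicate number as a block 456 probe sets were called, 402 of them shared with the 508, and the share above Col in octa was 85.2%. Of 53 called genes named by rule, 24 stayed called in every setting that kept all 4 arrays and tested them.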
